A study of Mus musculus with 36 samples.

Results

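The 10 genes described here belong to the bone morphogenetic protein (BMP) pathway: the secreted antagonists Nog (noggin) and Grem1 (gremlin 1), the ligands Bmp2, Bmp4 and Bmp7, and the target genes Id1, Id2, Id3, Smad6 and Smad7. They were taken by symbol from a count table of 43472 genes, 23121 of which had at least 1 count, and all 10 are in it. The table holds 36 libraries of enteric glial cells (EGCs), the glia of the gut's own nervous system. The cells were wild type (WT), grown as neurospheres from the intestine of C57BL/6J mouse embryos and then differentiated in serum-containing medium. They received no stimulus (unstimulated), healthy conditioned medium (H-CM, from digested normal colon cultured overnight) or tumor microenvironment conditioned medium (TME-CM, from digested orthotopic tumors of the mouse colorectal cancer line MC38). RNA was taken after 6, 12 or 24 h, with 4 libraries in each of the 9 groups. The medium of both stimulated groups came from mixed cells of a whole tissue.

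BMPs are dimeric ligands of the TGF-beta family that bind pairs of type I and type II serine/threonine kinase receptors. The receptors phosphorylate SMAD1, SMAD5 and SMAD9, which enter the nucleus with SMAD4 and switch on target genes, among them the Id genes and the inhibitory SMADs. Noggin and gremlin 1 bind the ligands outside the cell and keep them from their receptors, so that a tissue's BMP tone depends on ligands and antagonists together. In the gut wall, BMP signaling and its antagonists are known to shape enteric neuron and glia development, smooth muscle, and the stem cell niche of the crypt.

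A library held 13518 to 5244763 reads in the 6 h set, 2005239 to 5961933 in the 12 h set and 1608018 to 7552509 in the 24 h set. The common biological coefficient of variation fell with time (0.757, then 0.350, then 0.213), which makes the 6 h values the least precise. H-CM replicate 4 of 6 h stood apart with the lowest total; in it 1 read is worth 36.8 CPM (counts scaled to a common library size) and a count of 0 allows up to 110.5 CPM, taking 3 counts as the limit and covering counting error only. All levels are CPM computed with TMM normalization factors. The reads come from the 3′ end of transcripts, so that a level is not scaled by transcript length. Differences are log2 fold changes ± SE from edgeR's quasi-likelihood test, fitted on all genes of 1 time point, and a gene is called at a Benjamini-Hochberg adjusted p under 0.05. The sources do not say whether replicates were separate cultures, so p-values measure the spread between these samples, which may be technical.

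Of the members, TME-CM EGCs differed from H-CM EGCs in 1 of 9 tested at 6 h (Grem1 higher), in 2 of 10 at 12 h (Nog and Bmp4 lower) and in 3 of 9 at 24 h (Nog and Id2 lower, Grem1 higher). Over all genes tested, 0.0972% were called at 6 h. At 12 h, 1.89% were called, 1.22% higher and 0.675% lower. At 24 h, 5.4% were called, 2.75% higher and 2.65% lower. Against unstimulated EGCs, TME-CM EGCs differed in 1 of 9 members at 6 h (Grem1), 3 of 10 at 12 h (Nog, Grem1 and Bmp4) and 4 of 9 at 24 h (Nog, Grem1, Bmp2 and Bmp4), beside 0.454%, 4.41% and 9.52% of all genes. H-CM EGCs differed from unstimulated EGCs in 0 of 9 members at 6 h, where 0% of all genes were called by edgeR, 58 genes had an unadjusted p under 0.05 and DESeq2 called 0. They differed in 1 of 10 members at 12 h (Grem1) and 2 of 9 at 24 h (Grem1 and Bmp4), beside 0.403% and 2.03% of all genes. The 3 comparisons of a time point share libraries and are not independent of each other. The median log2 fold change over all genes tested in TME-CM versus H-CM was 0.13, −0.0011 and 0.0049 in order of time.

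Nog, on the minus strand of chromosome 11 (mm10, 89300638 to 89302332), encodes noggin, a secreted antagonist that binds BMP ligands. At 24 h, Nog stood at 83.0, 110, 79.1 and 50.2 CPM in the 4 unstimulated libraries. In H-CM EGCs it stood at 61.2, 86.4, 88.7 and 57.4 CPM. In TME-CM EGCs it stood at 12.4, 20.3, 15.2 and 14.6 CPM. All TME-CM libraries lay below all libraries of the other groups, with means of 80.5 ± 24.3 (SD, n = 4), 73.4 ± 16.4 and 15.6 ± 3.35 CPM. The level in TME-CM EGCs was 4.86-fold lower than in H-CM EGCs (log2 −2.28 ± 0.22, edgeR adjusted p = 2.01e-06) and 5.27-fold lower than in unstimulated EGCs (log2 −2.40 ± 0.22, adjusted p = 2.22e-07). H-CM and unstimulated EGCs overlapped (log2 −0.12 ± 0.20, adjusted p = 0.929).

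Nog was also lowest in TME-CM EGCs at 12 h. Unstimulated libraries had 82.9, 66.8, 89.5 and 66.8 CPM, H-CM libraries 69.7, 93.4, 70.0 and 80.9 CPM, and TME-CM libraries 31.2, 31.2, 37.1 and 41.6 CPM. All TME-CM values lay below the lowest value of the other groups. The level was 2.21-fold lower than with H-CM (log2 −1.15 ± 0.19, edgeR adjusted p = 0.00199) and 2.17-fold lower than without stimulation (log2 −1.12 ± 0.20, adjusted p = 0.000852). At 6 h the Nog groups overlapped, at 26.3 to 49.7 CPM unstimulated, 0 to 74.4 CPM with H-CM and 18.8 to 51.8 CPM with TME-CM, and the 0 was that of the library with the lowest total. The TME-CM versus H-CM value at 6 h was −0.76 ± 0.62 (adjusted p = 0.911). In order of group means, neighbours overlapped in range throughout, from unstimulated EGCs at 24 h (80.5 CPM) down to TME-CM EGCs at 12 h (35.3 CPM), 6 h (31.9 CPM) and 24 h (15.6 CPM). The 12 h call against H-CM was lost in 1 model of all 36 libraries (adjusted p = 0.0702).

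Grem1, on the minus strand of chromosome 2 (mm10, 113746164 to 113758646), encodes gremlin 1, a secreted antagonist that in the gut is known from stromal cells around the crypt. At 6 h, Grem1 stood at 173, 158, 131 and 214 CPM in unstimulated EGCs and at 156, 221, 260 and 368 CPM in H-CM EGCs. In TME-CM EGCs it stood at 1292, 380, 1237 and 867 CPM. Yam1, an entry with a large share of counts, took 12.32%, 37.76%, 10.97% and 14.22% of the counts in these TME-CM libraries. Its share was 48.62%, 43.86%, 47.95% and 19.99% in the H-CM libraries. In the unstimulated libraries it was 46.26%, 44%, 43.15% and 13.14%, the last in the library with 214 CPM of Grem1. With Yam1 removed from the counts, Grem1 kept its calls against H-CM and unstimulated EGCs. The TME-CM libraries with 1292 and 1237 CPM had 10120 and 10433 genes detected, from 4158689 and 2919357 reads. Those with 380 and 867 CPM had 13481 and 13796, from 1321201 and 5244763 reads. Whether the Grem1 difference depends on these and other differences between the libraries was not tested. The lowest TME-CM library, replicate 2, lay just above the highest H-CM library, which rests on 10 reads in the library with the lowest total. The level was 3.90-fold higher than with H-CM (log2 1.963 ± 0.40, edgeR adjusted p = 0.0441) and 5.42-fold higher than without stimulation (log2 2.44 ± 0.39, adjusted p = 0.000858). The call against H-CM was lost without H-CM replicate 1, 2, 3 or 4 (adjusted p = 0.221, 0.299, 0.237 and 0.0554) and without TME-CM replicate 1, 3 or 4 (0.119, 0.198 and 0.102). The call was also lost with DESeq2's size factors (0.0993) and with a replicate block (0.114), while the call against unstimulated EGCs held with H-CM replicate 4 out of the fit (log2 2.48, adjusted p = 0.000881).

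At 12 h, Grem1 rose with both media. It stood at 297, 262, 280 and 277 CPM unstimulated, at 547, 485, 747 and 407 CPM with H-CM and at 841, 644, 881 and 575 CPM with TME-CM. Both stimulated groups lay above all unstimulated libraries and overlapped each other. TME-CM EGCs were 2.62-fold above unstimulated EGCs (log2 1.39 ± 0.20, edgeR adjusted p = 9.57e-05) and H-CM EGCs 1.95-fold above (log2 0.96 ± 0.20, adjusted p = 0.0247). The call for H-CM was lost without unstimulated replicate 1, 2, 3 or 4 (adjusted p = 0.0710, 0.1105, 0.0974 and 0.109) or H-CM replicate 1 (0.0532), in the model of only the groups compared (0.0650) and in 1 model of all 36 libraries (0.0975). TME-CM versus H-CM gave 0.43 ± 0.19 (adjusted p = 0.425).

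At 24 h, the 3 groups of Grem1 values stood apart from each other. Unstimulated libraries had 228, 302, 279 and 255 CPM, H-CM libraries 448, 461, 459 and 413 CPM, and TME-CM libraries 869, 600, 784 and 617 CPM. H-CM EGCs were 1.67-fold above unstimulated EGCs (log2 0.74 ± 0.13, edgeR adjusted p = 0.00249) and TME-CM EGCs 1.61-fold above H-CM EGCs (log2 0.68 ± 0.13, adjusted p = 0.00176). Against unstimulated EGCs, TME-CM gave a 2.69-fold higher level (log2 1.43 ± 0.13, adjusted p = 9.32e-08). In 1 model of all 36 libraries, the difference of TME-CM from H-CM had an adjusted p of 0.474 and that of H-CM from unstimulated EGCs 0.666.

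**Figure D1:**
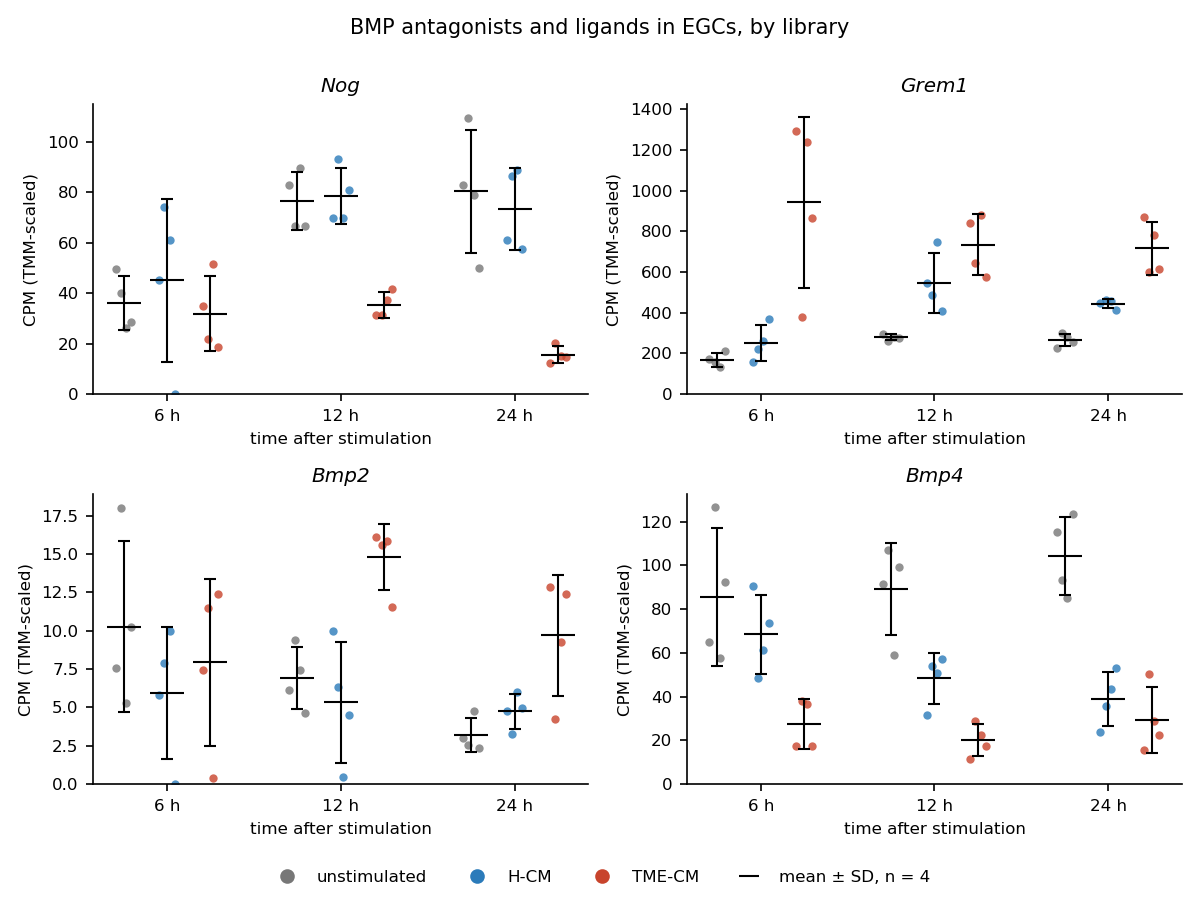
Level of Nog, Grem1, Bmp2 and Bmp4 in CPM (TMM-scaled, linear axis from 0) by time after stimulation. Points are libraries, bars the mean ± SD of 4 libraries in unstimulated (grey), H-CM (blue) and TME-CM (red) EGCs. At 24 h the TME-CM libraries of Nog sit between 12.4 and 20.3 CPM, below all others, and those of Grem1 between 600 and 869 CPM, above all others.

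The upstream sequences of Grem1 and Bmp4 are shown as those of an antagonist and a ligand that moved in opposite directions with the media. Nog and Bmp2 also differed in opposite directions, lower and higher in TME-CM than in unstimulated EGCs at 24 h. They had no entry in the RefSeq promoter table. They are the 250 bases before the RefSeq start (GRCm38.p6, 5′ to 3′ on the minus strand), chr2:113758649-113758898 and chr14:46390670-46390919. Capitals mark 2 short motifs that SMADs are known to bind, GGCGCC and CAGAC, read on both strands.
Grem1: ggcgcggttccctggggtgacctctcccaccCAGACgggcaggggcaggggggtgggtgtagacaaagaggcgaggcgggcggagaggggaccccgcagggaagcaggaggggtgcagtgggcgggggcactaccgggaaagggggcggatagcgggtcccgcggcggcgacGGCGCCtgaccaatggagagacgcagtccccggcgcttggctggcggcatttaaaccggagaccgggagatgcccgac
Bmp4: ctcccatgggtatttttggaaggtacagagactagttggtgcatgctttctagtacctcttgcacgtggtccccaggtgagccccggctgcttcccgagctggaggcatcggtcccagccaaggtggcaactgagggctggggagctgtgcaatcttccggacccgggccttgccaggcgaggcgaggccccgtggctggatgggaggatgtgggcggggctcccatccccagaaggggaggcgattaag
The Grem1 stretch holds both motifs and the Bmp4 stretch neither. In windows of 300 bases (250 before to 50 after the start), 11.9% of 32851 promoters hold GGCGCC and 49.6% hold CAGAC or its reverse complement GTCTG, so that a match is a description and not a site. Of the 10 members, 5 matched the RefSeq promoter table: Grem1, Bmp4, Id2, Id3 and Smad6.

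Bmp4, on the minus strand of chromosome 14 (mm10, 46383520 to 46390669), encodes a ligand that the gut mesenchyme is known to make. Its exons overlap the antisense gene Gm15217, which had 1 read in the 36 libraries together. At 12 h, Bmp4 stood at 91.6, 107, 59.0 and 99.2 CPM unstimulated, at 31.5, 53.9, 50.9 and 57.4 CPM with H-CM, and at 11.4, 28.8, 22.5 and 17.5 CPM with TME-CM. The 3 groups did not overlap. TME-CM EGCs were 4.51-fold below unstimulated EGCs (log2 −2.17 ± 0.28, edgeR adjusted p = 3.93e-05) and 2.44-fold below H-CM EGCs (log2 −1.29 ± 0.28, adjusted p = 0.0137). The call against H-CM was lost without H-CM replicate 2 or 4 (adjusted p = 0.0505 and 0.0539), without TME-CM replicate 1 or 4 (0.0637 and 0.0663), in the model of only the groups compared (0.0507) and in 1 model of all 36 libraries (0.0748).

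At 24 h, both media gave low Bmp4. Unstimulated libraries had 115, 93.4, 85.2 and 123 CPM, H-CM libraries 23.9, 35.8, 43.6 and 53.0 CPM, and TME-CM libraries 15.4, 50.3, 28.7 and 22.5 CPM. The stimulated groups lay below all unstimulated libraries and overlapped each other (log2 −0.46 ± 0.31, edgeR adjusted p = 0.550). TME-CM EGCs were 3.72-fold below unstimulated EGCs (log2 −1.89 ± 0.31, adjusted p = 0.000715) and H-CM EGCs 2.71-fold below (log2 −1.44 ± 0.30, adjusted p = 0.0212). The call for H-CM was lost without unstimulated replicate 1, 2 or 4 (adjusted p = 0.0806, 0.0501 and 0.0646) or H-CM replicate 2 (0.0795), and in 1 model of all 36 libraries (0.0532). At 6 h, Bmp4 stood at 57.8 to 127 CPM unstimulated, 48.5 to 90.5 CPM with H-CM and 17.5 to 38.2 CPM with TME-CM. All TME-CM libraries of 6 h were the lowest, but neither difference passed (log2 −1.33 ± 0.52, adjusted p = 0.735 against H-CM, and −1.69 ± 0.50, adjusted p = 0.236 against unstimulated EGCs). The second of these was called by DESeq2 (log2 −1.83, adjusted p = 0.0275), and both in 1 model of all 36 libraries (0.0274 and 0.00220).

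Smooth muscle genes moved with the media in the same libraries. The summed level of 9 smooth muscle markers (such as Acta2, Myh11 and Des, parts of the contractile apparatus) at 24 h was 7154 to 8210 CPM in unstimulated, 3307 to 4080 CPM in H-CM and 1771 to 2515 CPM in TME-CM EGCs. Of 8 tested, 7 were lower with H-CM and 8 with TME-CM than in unstimulated EGCs, and 4 were lower with TME-CM than with H-CM. At 12 h, 7 of 8 were lower with TME-CM than in unstimulated EGCs, and the sums were 4825 to 5239, 3208 to 4601 and 2683 to 2872 CPM. At 6 h the sums overlapped, at 1435 to 4241, 2062 to 2535 and 1995 to 4519 CPM. Fewer cells of a type and less RNA per cell cannot be told apart in such bulk libraries, and the part of these cells in the Bmp4 result was not tested.

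Of 9 fibroblast markers, 8 were tested and 4 were higher with TME-CM than with H-CM at 24 h: Pdgfra, Dcn, Lum and Col3a1, a growth factor receptor and matrix genes of mesenchymal cells. Dcn gave 1.21 ± 0.13 (edgeR adjusted p = 4.89e-06) and Pdgfra 0.93 ± 0.18 (adjusted p = 0.00193). The other tested fibroblast markers were not called in that comparison. Against unstimulated EGCs at 24 h, 2 of the 8 were higher and 1 lower with TME-CM. With H-CM, 0 were higher and 1 lower. The fibroblast sum at 24 h was 6130 to 7729 CPM in unstimulated, 5087 to 5756 CPM in H-CM and 6374 to 8057 CPM in TME-CM EGCs. The defining glial markers were present, with 0 of 10 at 0 in any group of 24 h and sums of 295 to 355, 357 to 378 and 334 to 438 CPM, and 0 of 9 tested were called between TME-CM and H-CM at 24 h (2 had an unadjusted p under 0.05). Neuron markers summed to 463 to 586, 481 to 585 and 425 to 686 CPM. Macrophage markers summed to 44.5 to 168, 69.8 to 304 and 60.9 to 297 CPM, and epithelial markers stayed at or under 7.29 CPM at 24 h. Markers of interstitial cells of Cajal (Kit, Ano1 and Etv1) summed to 101.5 to 153, 100.5 to 158 and 51.8 to 104 CPM, with 2 of 3 lower in TME-CM than in H-CM EGCs, and endothelial markers to 34.6 to 52.2, 30.7 to 60.4 and 10.2 to 24.7 CPM, with 1 of 2 tested lower. The part of these cells in the Grem1 and Nog results was not tested.

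**Figure D2:**
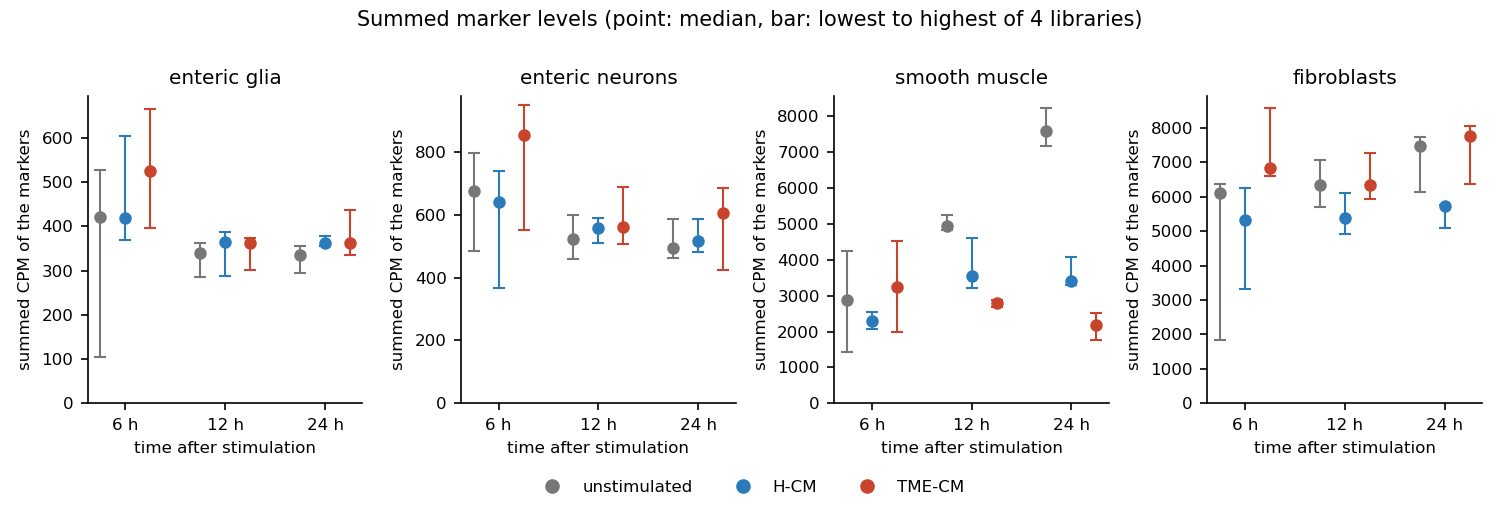
Summed CPM (linear axis from 0) of marker genes of enteric glia, enteric neurons, smooth muscle and fibroblasts by time after stimulation. Points are medians and bars run from the lowest to the highest of 4 libraries in unstimulated (grey), H-CM (blue) and TME-CM (red) EGCs. At 24 h the smooth muscle medians are 7580, 3406 and 2179 CPM, while the glial medians are 335, 362 and 364 CPM.

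Bmp2, on the plus strand of chromosome 2 (mm10, 133552159 to 133562885), encodes a ligand close to Bmp4 and was covered by few reads. At 24 h it stood at 3.01, 2.56, 4.79 and 2.35 CPM unstimulated, at 4.79, 3.24, 6.01 and 4.95 CPM with H-CM, and at 12.8, 4.22, 9.28 and 12.4 CPM with TME-CM. TME-CM replicate 2, the value of 4.22 CPM from 11 reads, overlapped the other groups. TME-CM EGCs were 3.09-fold above unstimulated EGCs (log2 1.63 ± 0.36, edgeR adjusted p = 0.00382), which was not called in 1 model of all 36 libraries (adjusted p = 0.450). Against H-CM, Bmp2 gave 1.055 ± 0.36 (adjusted p = 0.0990), and 1.26 (adjusted p = 0.0212) without TME-CM replicate 2.

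At 12 h, the TME-CM libraries of Bmp2 held 16.1, 15.6, 15.8 and 11.6 CPM, above all libraries of the unstimulated (4.65 to 9.42 CPM) and H-CM groups (0.456 to 9.95 CPM). Neither difference passed (log2 1.49 ± 0.53, edgeR adjusted p = 0.229 against H-CM, and 1.10 ± 0.53, adjusted p = 0.412 against unstimulated EGCs). At 6 h, counts of Bmp2 lay between 0 and 56 and the groups overlapped. Bmp7, on chromosome 2 (mm10, 172868012 to 172940321), another ligand of the family, had 0 to 33 reads per library and at most 7.12 CPM. It passed the filter on low counts at 12 h, where TME-CM versus H-CM gave −0.37 ± 0.85 (adjusted p = 0.929), and not at 6 h or 24 h.

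**Figure D3:**
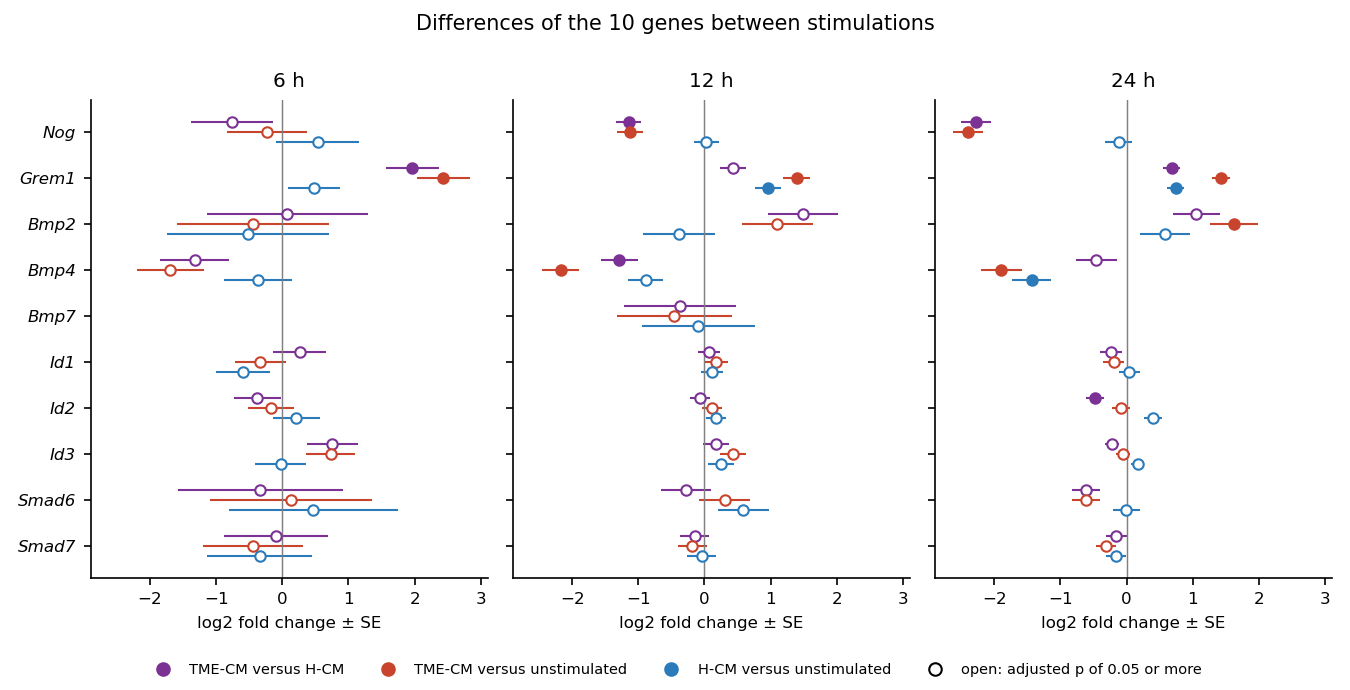
Log2 fold change ± SE (x axis) of the 10 genes at each time point in TME-CM versus H-CM (purple), TME-CM versus unstimulated (red) and H-CM versus unstimulated EGCs (blue), filled where the edgeR adjusted p was under 0.05. Grem1 lies to the right of 0 and Bmp4 to the left in all 9 comparisons drawn, and Nog passes with TME-CM at 12 h and 24 h. Bmp7 is drawn at 12 h only, where it passed the filter on low counts.

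The Id genes encode small proteins that bind bHLH transcription factors and keep them from DNA, and they are textbook targets of BMP signaling. Id1 lies on chromosome 2 (mm10, 152736251 to 152737410), Id2 on chromosome 12 (25093799 to 25097140) and Id3 on chromosome 4 (136143497 to 136145755). Id1 was called in none of the 9 comparisons of stimulations. At 24 h its libraries held 131 to 215 CPM unstimulated, 154 to 215 CPM with H-CM and 124 to 188 CPM with TME-CM, and TME-CM versus H-CM gave −0.24 ± 0.16 (edgeR adjusted p = 0.540).

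Id2 at 24 h stood at 512, 511, 495 and 403 CPM unstimulated, at 608, 745, 663 and 512 CPM with H-CM and at 363, 522, 433 and 496 CPM with TME-CM. The highest TME-CM library overlapped the lowest H-CM library. TME-CM EGCs were 1.40-fold below H-CM EGCs (log2 −0.48 ± 0.14, edgeR adjusted p = 0.0389) and overlapped unstimulated EGCs (log2 −0.09 ± 0.14, adjusted p = 0.840). H-CM libraries of Id2 all lay above unstimulated ones without passing (log2 0.40 ± 0.14, adjusted p = 0.190). The call against H-CM was lost without H-CM replicate 2 or 3 (adjusted p = 0.188 and 0.122) and without TME-CM replicate 1 or 3 (0.156 and 0.106). It was also lost in 1 model of all 36 libraries (adjusted p = 1). At 12 h, Id2 stood between 511 and 715 CPM in all 12 libraries.

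Id3 was called in no comparison of stimulations. At 24 h it stood at 400, 384, 393 and 373 CPM unstimulated, at 422, 465, 424 and 428 CPM with H-CM and at 348, 376, 386 and 388 CPM with TME-CM. Each TME-CM library had less Id3 than any H-CM library, by a small margin (log2 −0.22 ± 0.10, edgeR adjusted p = 0.298). At 6 h they held 706, 315, 509 and 609 CPM against 267 to 361 CPM with H-CM (log2 0.76 ± 0.38, adjusted p = 0.861), so that the sign of the Id3 value differed between 6 h and 24 h. The test of that change gave −0.97 ± 0.30 (adjusted p = 0.332), and 0.0126 without TME-CM replicate 2 of 6 h.

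Smad6 and Smad7 encode inhibitory SMADs that are switched on by the pathway and damp it at the receptor. Smad6 lies on chromosome 9 (mm10, 63953076 to 64022059). At 24 h, Smad6 stood at 14.3, 20.8, 14.7 and 14.3 CPM unstimulated, at 14.2, 17.3, 14.3 and 18.8 CPM with H-CM and at 10.4, 9.59, 11.4 and 10.2 CPM with TME-CM. All TME-CM libraries were below all others, but neither difference passed (log2 −0.61 ± 0.21, edgeR adjusted p = 0.11 against H-CM, and −0.62 ± 0.21, adjusted p = 0.0701 against unstimulated EGCs). Smad7 at 24 h stood at 39.1 to 60.2, 37.3 to 49.6 and 36.8 to 43.5 CPM in the same order (TME-CM versus H-CM −0.15 ± 0.16, adjusted p = 0.717).

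Between TME-CM and H-CM, the 2 groups of libraries did not overlap for Grem1 and Bmp4 at 6 h, for Nog, Bmp2 and Bmp4 at 12 h, and for Nog, Grem1, Id3 and Smad6 at 24 h. Over all genes tested, 4.13%, 7.21% and 11.2% had no overlap in order of time. Against unstimulated EGCs, the shares of all genes without overlap were 3.55%, 10.6% and 13.1% for TME-CM. For H-CM they were 1.7%, 3.85% and 8.17%.

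**Figure D4:**
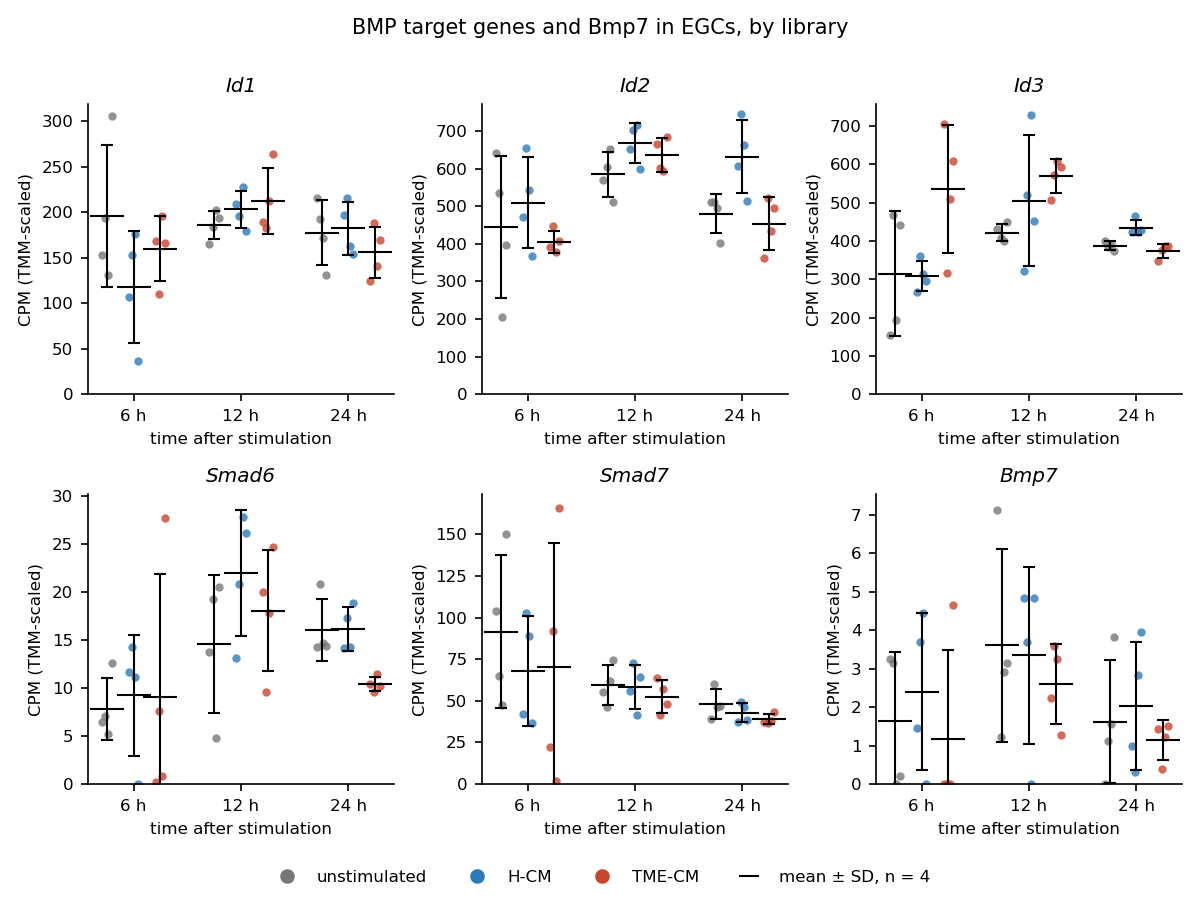
Level of Id1, Id2, Id3, Smad6, Smad7 and Bmp7 in CPM (TMM-scaled, linear axis from 0) by time after stimulation, drawn as for the antagonists and ligands. Points are libraries of unstimulated (grey), H-CM (blue) and TME-CM (red) EGCs, and bars are the mean ± SD of 4 libraries, with bars that reach below 0 ending at the axis. At 24 h the Smad6 libraries of TME-CM sit between 9.59 and 11.4 CPM and those of the other groups between 14.2 and 20.8 CPM.

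Short stretches of the windows at the RefSeq starts of Id2, Id3 and Smad6 show the SMAD motifs in these target genes. Each has 30 bases (RefSeq, GRCm38.p6, 5′ to 3′ on the gene's strand). The Id2 and Id3 stretches lie inside the gene spans given above, past the 5′ end there. The RefSeq start and the gene annotation thus differ for both genes, and which start the cells used was not tested. The Id3 window holds 2 matches of CAGAC or GTCTG, and not both are shown. Capitals mark GGCGCC in Id2 (chr12:25096306-25096335, minus strand), GTCTG, the reverse complement of CAGAC, in Id3 (chr4:136143741-136143770, plus strand) and the palindrome GTCTAGAC in Smad6 (chr9:64022045-64022074, minus strand).
Id2: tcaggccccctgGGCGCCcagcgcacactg
Id3: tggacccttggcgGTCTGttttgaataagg
Smad6: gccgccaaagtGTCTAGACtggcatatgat
The palindrome spans the annotated start of Smad6 and is found, on either strand, in 0.213% of the 32851 promoter windows. The 3 motifs were searched on both strands, and none overlaps another in these windows.

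The design also asks how the responses changed over time. From 12 h to 24 h, the TME-CM minus H-CM difference of Nog changed by −1.10 ± 0.27, with an unadjusted p of 0.000514 and an edgeR adjusted p of 0.99997. That of Bmp4 changed by 0.86 ± 0.46 and that of Grem1 by 0.26 ± 0.27. No member was called, as were 0% of all genes (358 had an unadjusted p under 0.05, and DESeq2 called 0). From 6 h to 24 h, Grem1 changed by −1.33 ± 0.41 (adjusted p = 0.309) and Nog by −1.41 ± 0.58 (adjusted p = 0.508), beside 0% of all genes called (1021 with an unadjusted p under 0.05, and 36 called by DESeq2). The Grem1 change passed without TME-CM replicate 2 of 6 h (log2 −1.60, adjusted p = 0.00758) and with no filter on low counts (−1.40, adjusted p = 0.0298).

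Within a stimulation, 24 h was compared with 12 h. The fit also held the 6 h libraries of that stimulation, which were the least precise. In TME-CM EGCs, all 24 h libraries of Nog (12.4 to 20.3 CPM) lay below all 12 h libraries (31.2 to 41.6 CPM), at −1.18 ± 0.47 (edgeR adjusted p = 0.99993). Id2 (−0.49 ± 0.17) and Id3 (−0.61 ± 0.21) were also lower in all 24 h libraries, each with an adjusted p of 0.99993. In a model of these 8 libraries only, Nog (adjusted p = 0.0197) and Id3 (0.0425) passed. In unstimulated and H-CM EGCs, Nog gave 0.06 ± 0.27 and −0.09 ± 0.23, Id2 −0.30 ± 0.27 and −0.08 ± 0.20, and Id3 −0.14 ± 0.29 and −0.22 ± 0.22. All 24 h libraries of Id3 lay below all 12 h libraries in unstimulated EGCs as well. Over all genes tested, 5.78% had no overlap between 12 h and 24 h in TME-CM EGCs. The share was 4.38% in unstimulated and 4.38% in H-CM EGCs. Over all genes, 0.0166% of 12013 were called in TME-CM EGCs, where 112 had an unadjusted p under 0.05. In unstimulated and H-CM EGCs 0% and 0% were called (116 and 411 with an unadjusted p under 0.05, and 0 by DESeq2 in each).

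Beyond the members, 5 of 15 BMP-class ligands were tested at 12 h and 4 at 24 h. Gdf6, a ligand known from joint and skeletal patterning, was higher with TME-CM than with H-CM at 24 h (0.92 ± 0.22, edgeR adjusted p = 0.0122), at 15.9 to 30.9 against 11.3 to 14.8 CPM. Unstimulated EGCs held 19.8 to 26.8 CPM of Gdf6, in the range of TME-CM EGCs. The call was lost without H-CM replicate 2 (0.0596) or TME-CM replicate 1 or 3 (0.0697 and 0.0570). Gdf10 gave −0.81 ± 0.27 (adjusted p = 0.0901).

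Of 18 secreted antagonists and modulators, 15 were tested at 24 h, with 2 called higher (Grem1 and Chrdl2) and 1 lower (Nog) in TME-CM versus H-CM. The median over the 15 was 0.24, beside 0.0049 for all genes. Chrdl2, a chordin-like antagonist, held 1.92 to 10.5 CPM with TME-CM and 0.495 to 3.39 CPM with H-CM (1.99 ± 0.56, adjusted p = 0.0363), and its call was lost without H-CM replicate 2, 3 or 4 (0.0703, 0.159 and 0.103), without TME-CM replicate 1, 3 or 4 (0.140, 0.0927 and 0.0983) and with a replicate block (0.0738). Of the abundant genes of this list, Fstl1, a follistatin relative, (0.26 ± 0.13, adjusted p = 0.365) and Crim1, a membrane-bound BMP-binding protein (0.24 ± 0.12, adjusted p = 0.316) did not pass. TME-CM versus unstimulated EGCs at 24 h gave a median of 0.085 over the 15, with 2 called higher and 4 lower.

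At 12 h, 14 of the 18 antagonists were tested, 1 higher and Nog lower. The higher one was Fst, follistatin, which binds activins and some BMPs, with 14.8 to 43.2 CPM with TME-CM and 6.39 to 11.4 CPM with H-CM (1.48 ± 0.37, edgeR adjusted p = 0.0394). Its call was lost without H-CM replicate 1, 2, 3 or 4 (0.0563, 0.141, 0.0750 and 0.0674) or TME-CM replicate 1, 3 or 4 (0.0510, 0.0757 and 0.286). At 6 h, 10 were tested and 1, Grem1, was called.

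Of 12 receptors and co-receptors in the table, 11 were tested at 24 h and 2 were lower in TME-CM than in H-CM EGCs, with a median of −0.34 over the 11. Acvrl1, the type I receptor ALK1, gave −0.58 ± 0.16 (edgeR adjusted p = 0.0357), and Bambi, a decoy receptor without a kinase that is also on the list of target genes, −0.84 ± 0.20 (adjusted p = 0.00987). Bambi stood at 10.4 to 15.0 CPM with TME-CM and 21.3 to 23.7 CPM with H-CM. The Acvrl1 call was lost without H-CM replicate 2, 3 or 4 (0.139, 0.0874 and 0.0705) or TME-CM replicate 1 or 3 (0.133 and 0.143), and that of Bambi without TME-CM replicate 1 (0.0513). Bmpr2, the BMP type II receptor (0.60 ± 0.25, adjusted p = 0.241), and Bmpr1a, a type I receptor (−0.34 ± 0.13, adjusted p = 0.161), did not pass. At 6 h and 12 h, 0 of 9 and 0 of 10 receptors were called by edgeR, with 1 and 0 at an unadjusted p under 0.05. TME-CM versus unstimulated EGCs at 24 h gave a median of −0.062 over the 11 receptors, with 1 called lower and 0 higher.

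Of 12 SMADs and intracellular regulators, all were tested and 0 were called in TME-CM versus H-CM at any time point, with 2, 1 and 3 (in order of time) at an unadjusted p under 0.05. Smad5, a signal carrier of the pathway, gave 0.01 ± 0.13 at 24 h (edgeR adjusted p = 0.982), and the repressor Ski −0.18 ± 0.12 (adjusted p = 0.523).

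Of 16 BMP target genes, 13 were tested at 24 h. In TME-CM versus H-CM, 3 were called lower (Hey1, Bambi and Id2) and 0 higher, 12 of the 13 values were below 0, and the median was −0.24 beside 0.0049 for all genes. Hey1, a bHLH repressor also switched on by Notch, stood at 2.74 to 4.99 CPM with TME-CM, 13.96 to 17.3 CPM with H-CM and 6.91 to 15.8 CPM unstimulated (−1.99 ± 0.29 against H-CM, edgeR adjusted p = 0.000139). In 1 model of all 36 libraries, all 3 calls were lost (adjusted p = 0.589 for Hey1 and 1 for Bambi and Id2), as were those of the other pathway genes named at 24 h beside the members. At 12 h, 9 of 13 values were below 0 with a median of −0.15, and at 6 h 8 of 11 with a median of −0.38. In both, 0 were called by edgeR, with 2 and 1 at an unadjusted p under 0.05. TME-CM versus unstimulated EGCs at 24 h gave a median of −0.31 over the 13 target genes, with 1 called lower and 0 higher.

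**Figure D5:**
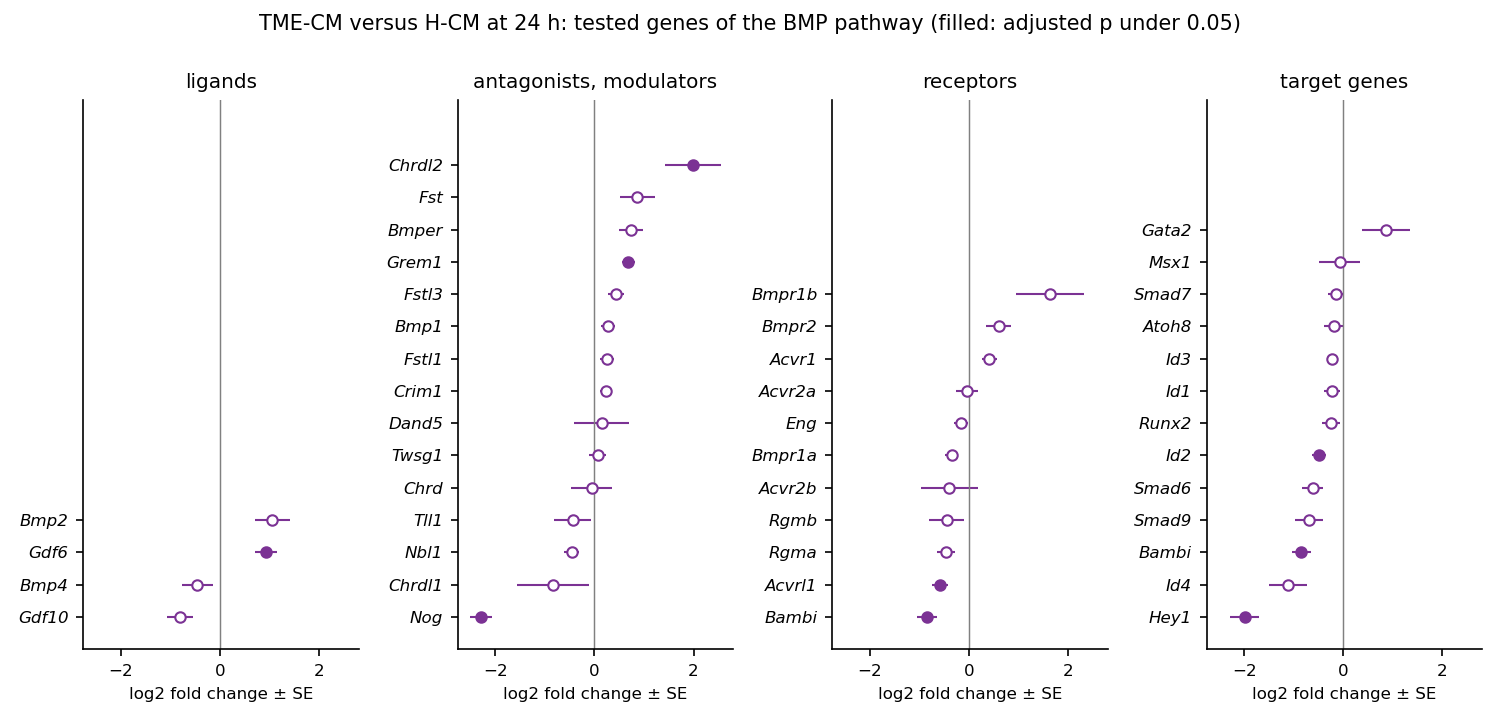
Log2 fold change ± SE (x axis) of TME-CM versus H-CM EGCs at 24 h for each tested gene of 4 lists, sorted by value and filled where the edgeR adjusted p was under 0.05. Among the antagonists Nog lies at the low end and Chrdl2 at the high end. Among the target genes 12 of 13 points lie below 0, from Hey1 at −1.99 upward.

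In the TGF-beta and activin branch, 13 genes were tested at 24 h, with 0 higher and 2 lower in TME-CM than in H-CM EGCs. The ligands Tgfb3 (−0.80 ± 0.14, adjusted p = 0.00108) and Tgfb2 (−0.61 ± 0.15, adjusted p = 0.0185) were lower. The Tgfb2 call was lost without H-CM replicate 3 or 4 (0.0901 and 0.0699) or TME-CM replicate 3 or 4 (0.0641 and 0.0602). At 12 h Tgfb3 was the 1 called gene of 13 (−1.12 ± 0.23, adjusted p = 0.0104), and its call was lost without TME-CM replicate 1 or 4 (0.0519 and 0.0577). Of the bHLH factors that ID proteins bind or resemble, 8 were tested at 24 h and Hand2, a factor of enteric neuron and mesenchyme development, was called higher (0.58 ± 0.12, adjusted p = 0.00316).

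The genes whose group means ran most like those of Nog over the 9 groups were Cux1 (Pearson r = 0.938), Kcnmb2 (0.930), Tmem218 (0.924), Cspg4 (0.922) and Dlk1 (0.920), out of 10090 candidates with a mean of at least 5 CPM. Over the 24 libraries of 12 h and 24 h their r with Nog was 0.713, 0.832, 0.413, 0.791 and 0.884. These values share library depth and the time of culture, and are a description. For Grem1 the nearest genes were Tmem2 (0.980) and Dtx3l (0.976), for Bmp4 Prss23 (0.916) and Arhgap1 (0.915), and for Bmp2 Irak3 (0.934) and Psme2b (0.929). For Bmp7 they were Pcgf3 (0.932) and Pfdn4 (0.919), for Id1 Mri1 (0.976) and Ppp1r21 (0.971), for Id2 Zfp707 (0.901) and Vcp (0.882), and for Id3 Tbx3 (0.993) and Selk (0.977). For Smad6 they were Mex3d (0.985) and Fbxw9 (0.979), and for Smad7 Ryr2 (0.938) and Cbfa2t3 (0.937). Over the 24 libraries, r for these genes, in the order named, was 0.77 and 0.90 with Grem1 and 0.90 and 0.56 with Bmp4. It was 0.68 and 0.73 with Bmp2, 0.42 and −0.13 with Bmp7, and 0.43 and 0.45 with Id1. It was 0.63 and 0.25 with Id2, and 0.096 (Tbx3) and 0.82 (Selk) with Id3. With Smad6 it was 0.15 and 0.37, and with Smad7 0.33 and 0.060. Among the members themselves, Grem1 and Bmp4 ran opposite to each other, with r = −0.90 over the 9 groups and −0.87 over the 24 libraries.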

How the data were processed

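RNA was measured by 3′ mRNA sequencing (QuantSeq) in 36 libraries. The authors removed adapters (fastq-mcf), aligned to mm10 (HISAT2), dropped multi-mapping reads, counted per gene (HT-seq Count) and deposited these raw counts. The submitters' processing notes also name FastQC 0.11.7 and SAMtools 1.5. Annotation, strand setting and any use of molecular identifiers are not given in the sources used here. Every column was mapped to a sample.

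The tools were edgeR 4.0.16 and DESeq2 1.42.0 under R 4.3.3: filterByExpr (minimum count 10), TMM factors, and a quasi-likelihood fit of the 12 libraries of a time point. Changes of the TME-CM minus H-CM difference were fitted on the 16 libraries concerned, and changes over time on the 12 libraries of a stimulation. Adjusted p-values are Benjamini-Hochberg over all genes tested. The calling was also run on simulated counts with planted changes, the outcome of which is not given here. Replicate libraries differed beyond sampling noise (lowest chi-square per degree of freedom 3.32). The members and gene lists were chosen with earlier results of these data known, and no p was adjusted over a list alone. Some genes of the lists are not reported here, and list counts leave them out. The rule for named genes took all members, every called gene of a list (up to 8) and up to 3 abundant ones, and the genes nearest to each member by group means of log2 CPM (prior count 2). Gene positions were read from an annotation of GRCm38 (mm10).

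Alternatives were DESeq2's size factors, no filter, DESeq2's Wald test, only the groups compared, 1 model of all 36 libraries, a replicate block, Yam1 (an entry with a large share of counts) removed, other CPM scalings, another correlation, and leave-one-out fits. Leaving H-CM replicate 4 out of the 6 h fit for TME-CM versus unstimulated EGCs was added after seeing the data.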

Additional observations from a re-analysis of the deposited data

Results flagged for a closer look

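In 6 of the 90 sets of 4 libraries (10 genes in 9 groups), 1 library lay far from the other 3, with a gap to its nearest neighbour, as a share of the whole range, above Dixon's critical value. Chance gives this in about 1 in 20 sets. Bmp7 in TME-CM EGCs at 6 h had 21 reads (4.65 CPM) in replicate 4 and 0 in the other libraries (gap 1.0 of the range). Smad6 in unstimulated EGCs at 24 h stood at 20.8 CPM in replicate 2 and 14.3 to 14.7 CPM in the others (0.943). Bmp2 in TME-CM EGCs at 12 h stood at 11.6 CPM in replicate 4 and 15.6 to 16.1 CPM in the others (0.885). Id3 in H-CM EGCs at 24 h stood at 465 CPM in replicate 2 and 422 to 428 CPM in the others (0.855). Smad7 in TME-CM EGCs at 24 h stood at 43.5 CPM in replicate 4 and 36.8 to 37.8 CPM in the others (0.852). Id2 in unstimulated EGCs at 24 h stood at 403 CPM in replicate 4 and 495 to 512 CPM in the others (0.842). No member's change of the TME-CM effect between time points passed the test, so no difference between time points is listed.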

How the results depend on the processing

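The lower Nog of TME-CM EGCs at 24 h kept its call under every alternative run. With a library left out, its edgeR adjusted p was at most 3.34e-05. The higher Grem1 of TME-CM versus unstimulated EGCs at 6 h also kept its call. No fit left out both TME-CM libraries of 6 h with the fewest genes detected, replicates 1 and 3. The number of members called moved as follows. In TME-CM versus H-CM at 6 h it went from 1 to 0 with DESeq2's size factors and with a replicate block and to 2 in 1 model of all 36 libraries, with 0 to 1 over the fits that left out a library. In TME-CM versus unstimulated EGCs at 6 h it went from 1 to 2 with DESeq2's Wald test and with all 36 libraries. In TME-CM versus H-CM at 12 h it went from 2 to 1 with only the groups compared and to 0 with all 36 libraries (1 to 2 over left-out libraries). In H-CM versus unstimulated EGCs at 12 h it went from 1 to 0 in both of these models (0 to 1). At 24 h it went from 3 to 1 in TME-CM versus H-CM with all 36 libraries (2 to 4), from 4 to 3 in TME-CM versus unstimulated EGCs (Bmp2 lost, adjusted p = 0.450) and from 2 to 0 in H-CM versus unstimulated EGCs (1 to 2). For the change from 6 h to 24 h it went from 0 to 1 with no filter (0 to 2), and for 24 h versus 12 h in TME-CM EGCs from 0 to 2 with only the groups compared. The cause was not tested.

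Among other genes, Fst, Tgfb3 (12 h) and Acvrl1 (24 h) lost their calls with only the groups compared (adjusted p = 0.0727, 0.0532 and 0.0540), and all 8 pathway genes named at 24 h beside the members lost theirs with all 36 libraries, as did Fst (0.788) and Tgfb3 (0.140) at 12 h. Over all genes, TME-CM versus H-CM at 6 h gave 9 calls, and 2 with DESeq2's size factors, 41 with no filter, 24 with DESeq2, 19 with only the groups compared, 899 with all 36 libraries and 4 with the block. At 12 h it gave 230, and 465 with no filter, 378 with DESeq2 and 81 with all 36 libraries, and at 24 h 686, and 71 with all 36 libraries. TME-CM versus unstimulated EGCs gave 42 at 6 h, and 23 with DESeq2's size factors, only the groups compared or the block, 26 without H-CM replicate 4, 95 with DESeq2, 105 with no filter and 1113 with all 36 libraries, which also gave 288 for 536 at 12 h and 265 for 1210 at 24 h. H-CM versus unstimulated EGCs gave 0 at 6 h (1 with no filter), 49 at 12 h (168 with no filter, 99 with DESeq2, 28 with only the groups compared) and 258 at 24 h (446, 412 and, with all 36 libraries, 34). The change from 6 h to 24 h gave 0, and 88 with no filter, 36 with DESeq2, 18 with 24 libraries, 16 with all 36 and 1 with the block. In 24 h versus 12 h, only the groups compared gave 63 for 2 with TME-CM (DESeq2 5) and 2 for 0 unstimulated, and no filter 6 for 0 with H-CM.

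Same-numbered libraries correlated at −0.16 to 0.22 in their deviations from the group means and not each best with their own number, so the numbers were not taken to pair the libraries. With a replicate block, Grem1 in TME-CM versus H-CM at 6 h (adjusted p = 0.114) and Chrdl2 at 24 h (0.0738) lost their calls, and no other named call changed.

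Values that changed sign were all of uncalled differences. Bmp2 in TME-CM versus H-CM at 6 h became −0.066 with DESeq2 and −0.3545 with the block, and Smad6 in TME-CM versus unstimulated −0.73 and Id3 in H-CM versus unstimulated 0.063 with the block. Smad6 in H-CM versus unstimulated at 24 h became 0.0072 with all 36 libraries, 0.00073 with the block and 0.0021 with Yam1 removed. For changes of the effect, Smad7 from 12 h to 24 h became −0.00075 with DESeq2 and −0.0050 with the block. From 6 h to 24 h, Id2 became 0.0035 with DESeq2's size factors and 0.026 with DESeq2, Smad7 0.0031 and, with the block, 0.39, and Smad6 0.73 with the block.

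With a library left out, signs differed over these ranges. At 6 h, TME-CM versus H-CM, Bmp2 ran from −0.21 to 0.46, Smad6 from −2.02 to 0.064 and Smad7 from −0.96 to 0.29. At 6 h, TME-CM versus unstimulated, Nog ran from −0.57 to 0.0064, Id2 from −0.37 to 0.085 and Smad6 from −1.57 to 0.53, and Id3 in H-CM versus unstimulated from −0.25 to 0.22. At 12 h, Id1 in TME-CM versus H-CM ran from −0.053 to 0.12 and Bmp7 in TME-CM versus unstimulated from −0.73 to 0.051. In H-CM versus unstimulated at 12 h, Nog ran from −0.064 to 0.13, Bmp2 from −0.84 to 0.015, Bmp7 from −0.35 to 0.43 and Smad7 from −0.16 to 0.11. At 24 h, Id2 in TME-CM versus unstimulated ran from −0.17 to 0.0093. In H-CM versus unstimulated at 24 h, Nog ran from −0.29 to 0.070, Id1 from −0.081 to 0.15 and Smad6 from −0.078 to 0.15. For changes from 12 h to 24 h, Bmp7 ran from −0.69 to 0.13 and Smad7 from −0.12 to 0.13. From 6 h to 24 h, Id2 ran from −0.22 to 0.017, Smad6 from −0.67 to 1.64 and Smad7 from −0.42 to 0.85. In 24 h versus 12 h, unstimulated, Nog ran from −0.12 to 0.24, Id1 from −0.18 to 0.051 and Smad6 from −0.17 to 0.36. With H-CM, Bmp2 ran from −0.52 to 0.31 and Id3 from −0.39 to 0.019, and with TME-CM Grem1 from −0.15 to 0.060. Some 6 h libraries are limited by depth, since 3 reads are 110.5 CPM in H-CM replicate 4 and 15.8 CPM in unstimulated replicate 3. Deeper 6 h libraries also differed. Smad7 stood at 2.05 CPM (5 reads) in TME-CM replicate 3, of 2919357 reads, and at 166 CPM in replicate 4, of 5244763 reads. The cause of that spread was not tested.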
